A study of Homo sapiens with 3 samples.

Results

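Zinc transporter and metallothionein genes were described in CAMA1 cells, a long-established line from human breast cancer with estrogen receptor and an amplified FGFR1 gene. All 37 genes were taken by name from a count table of 26485 entries: 10 of the SLC30 family, 14 of the SLC39 family, 12 metallothionein genes of the MT1, MT2, MT3 and MT4 types, and the transcription factor gene MTF1. The rule for membership used gene symbols and no measured value. The series holds 1 group, CAMA1 cells below passage 10 that had spent 48 h in medium deprived of estradiol, in 3 libraries that the submitters call biological replicates, and no untreated, estradiol-treated or otherwise different group was analysed here. All libraries therefore share the lack of estradiol, and no effect of it can be read from them.

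Zinc is a structural and catalytic cofactor of many proteins, and the free ion in the cytosol is kept scarce. SLC39 proteins (called ZIP) move zinc into the cytosol from outside the cell or from organelles. Most SLC30 proteins (called ZnT) move it out of the cytosol, across the plasma membrane or into organelles and vesicles. Metallothioneins are small cysteine-rich proteins that bind zinc, copper and cadmium, and MTF1 is the zinc-sensing transcription factor that turns on metallothionein genes and SLC30A1 when zinc is plentiful. In breast tissue SLC39A6, also named LIV-1, is known as an estrogen-regulated gene, and SLC30A2 is known for loading zinc into milk.

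The libraries held 26473939, 26592335 and 30745412 counts in replicates 1, 2 and 3. Levels are TPM, counts divided by gene length and scaled to a common library total, and errors are SD over the 3 libraries throughout. All 7 luminal epithelial markers were detected, from ESR1 at 30.1 ± 0.665 TPM to KRT19 at 3256 ± 605 TPM. Of the markers of other cells, COL1A2 had 0 counts and PTPRC at most 3 counts per library, whereas the immune marker LYZ stood at 6.48 ± 1.17 TPM, COL1A1 stood at 10.5 ± 0.270 TPM and ACTA2 at 31.7 ± 3.32 TPM. Detected means 10 counts or more in all libraries. It is not stated whether separate cultures gave the replicates, so the p-values below concern the spread among these libraries, which may be technical.

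Of the 37 members 22 were detected: 11 of the 14 SLC39 genes, 7 of the 10 SLC30 genes, 3 of the 12 metallothionein genes and MTF1. Among all 18985 protein-coding entries 67.3% were detected, and among all entries 54.9%. In all, 18 members averaged at least 10 TPM, which 47.8% of protein-coding entries did. The remaining 15 members included 8 with 0 counts in all libraries, namely 7 metallothionein genes and SLC39A12, against 13.6% of protein-coding entries at 0. A count of 0 allows up to 3 counts per library, an allowance for counting error alone.

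**Figure D1:**
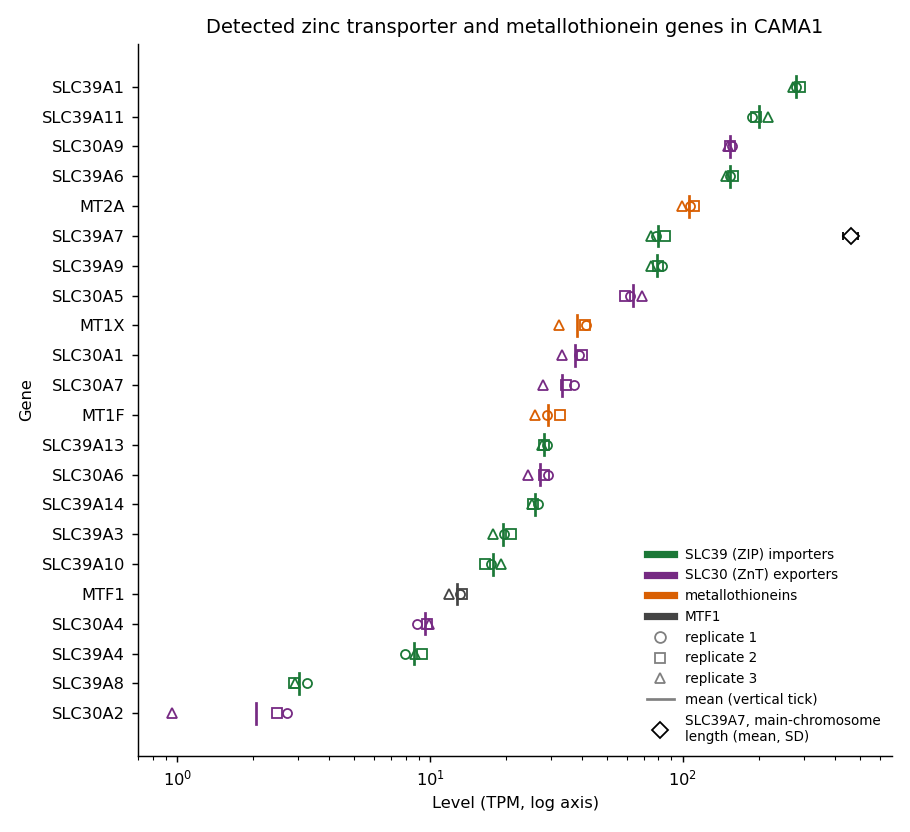
Level in TPM (log axis) of the 22 detected members, ordered by mean, with 1 open symbol per library and a vertical tick at the mean; the diamond with its SD bar is SLC39A7 with its length on the main chromosome. SLC39A1 and SLC39A11 stand highest by the deposited lengths, and SLC39A7 moves from 79.4 TPM to 462 TPM with the other length.

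By deposited length the SLC39 importers were led by SLC39A1, SLC39A11, SLC39A6 and SLC39A7. SLC39A1, which codes for the plasma membrane transporter ZIP1, stood at 280.0, 290 and 271 TPM in replicates 1, 2 and 3, the highest of all members by deposited length and rank 505 among protein-coding genes. SLC39A11, a member of the same family, followed at 188, 195 and 217 TPM, with replicate 3 the highest. SLC39A6 stood at 154, 157 and 149 TPM, close together in all libraries, in cells that had been without estradiol. It lies on chromosome 18 (36108531 to 36129394, minus strand, hg38) and its level ranked 1155 among protein-coding genes.

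SLC39A7 codes for ZIP7, which releases zinc from the endoplasmic reticulum into the cytosol, and it carried the most counts of any member, 11449, 12508 and 12876 in replicates 1, 2 and 3. Its level depends on the length it is divided by. The deposited length of 14724 bases sums 6 copies of its exons, 1 on chromosome 6 and the others on alternate contigs of that chromosome, and gave 78.5, 85.1 and 74.5 TPM. With the 2454 bases that the same table lists on chromosome 6 itself, a choice made after seeing the data, the levels were 457, 495 and 433 TPM. SLC39A7 then ranked 1 among the members, against 6 by deposited length, and 258 among protein-coding genes. It was the sole member whose deposited length differed from its length on the main chromosome, 36 of 37 being equal. Its share of the summed SLC39 TPM was 8.86 ± 0.482% by deposited length and 36.8 ± 1.39% by the chromosome 6 length. How many times reads on the alternate contigs were counted was not stated.

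The 9 genes of the LIV-1 subfamily of ZIP proteins, to which SLC39A6 and SLC39A7 belong, held 317 ± 9.0 TPM in sum, or 692 ± 34.9 TPM with main-chromosome lengths, and 7 of the 9 were detected. SLC39A10, whose product ZIP10 is known to form a heteromer with ZIP6, stood at 17.4, 16.5 and 19.1 TPM. SLC39A6 exceeded it in every library, with a log2 ratio of 3.12 ± 0.15, a factor of 8.69, by deposited length. The log2 ratio was 2.53 without division by length and 3.44 with GENCODE exon lengths, so its size depends on the length used. SLC39A13, whose product serves the Golgi and vesicles, stood at 29.01, 28.1 and 27.7 TPM, and SLC39A14, a transporter of zinc, manganese and iron, at 26.8, 25.6 and 25.4 TPM. Both were close to their means in every library. SLC39A4, the gut zinc transporter that is defective in acrodermatitis enteropathica, stood at 8.66 ± 0.637 TPM, and SLC39A8, known for manganese and cadmium uptake, at 3.03 ± 0.207 TPM. SLC39A5, a transporter of pancreas, kidney and gut, had 11, 4 and 6 counts, and SLC39A12, known from brain, had 0 counts in every library, which allows at most 0.108 TPM.

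Among the 3 genes of the ZIP II subfamily SLC39A1 was accompanied by SLC39A3 at 19.6, 21.0 and 17.8 TPM, while SLC39A2 had 1, 1 and 2 counts. SLC39A9, which codes for a Golgi and plasma membrane transporter, stood at 82.6, 79.5 and 74.7 TPM. The exons of SLC39A1 share 101 bases with CREB3L4 on the opposite strand, those of SLC39A7 share 28 bases with RXRB and those of SLC39A5 share 39 bases with ANKRD52. Those of SLC30A4 share 68 bases with HMGN2P46. Use of strand in counting was not stated, so reads in these stretches are uncertain.

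The SLC30 genes were led by SLC30A9, with SLC30A5 next. SLC30A9, whose product ZnT9 exports zinc from mitochondria and not from the cytosol, stood at 156, 154 and 151 TPM. It made up 47.1 ± 0.523% of the summed SLC30 TPM. By deposited length its level and that of SLC39A6 overlapped between libraries. With GENCODE exon lengths SLC39A6 averaged 221 TPM and SLC30A9 99.97 TPM. SLC30A5 stood at 61.7, 58.9 and 69.0 TPM and SLC30A6 at 29.3, 28.1 and 24.5 TPM; their products form the ZnT5-ZnT6 heterodimer that loads zinc into enzymes of the secretory pathway. SLC30A5 was the higher of the pair in every library, with a log2 ratio of 1.21 ± 0.24. SLC30A7, which serves the same compartments, stood at 37.1, 34.5 and 27.9 TPM, lowest in replicate 3. Together these 3 genes held 124 ± 3.87 TPM.

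SLC30A1, which codes for the plasma membrane exporter and is a known target of MTF1, stood at 38.9, 40.0 and 33.4 TPM. MTF1 itself stood at 13.1, 13.4 and 11.8 TPM, below SLC30A1 in every library by deposited length. With GENCODE exon lengths SLC30A1 averaged 19.9 TPM, MTF1 18.3 TPM and SLC30A9 99.97 TPM. SLC30A4, an exporter of endosomes and secretory vesicles, stood at 9.51 ± 0.523 TPM. SLC30A2 was the lowest of the detected members, with 67, 62 and 28 counts or 2.71, 2.49 and 0.954 TPM, and replicate 3 stood apart below the other libraries. The remaining SLC30 genes were not detected: SLC30A3, which fills synaptic vesicles with zinc, had 5 counts in each library, SLC30A8, the transporter of insulin granules, had 3, 2.5 and 2.25 counts, and SLC30A10, known mainly as a manganese exporter, had 1, 1 and 0.

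In sum, the SLC39 genes held 888, 910.1 and 888 TPM and the SLC30 genes 335, 328 and 317 TPM in replicates 1, 2 and 3. The log2 ratio of the SLC39 over the SLC30 sum was 1.45 ± 0.04, against 2.41 with GENCODE exon lengths and 1.98 with main-chromosome lengths. The ratio does not set zinc entry to the cytosol against exit from it. The sums are of RNA, the SLC30 sum includes SLC30A9, and both sums include transporters of other metals. The median was 22.7 TPM over the 14 SLC39 genes and 18.4 TPM over the 10 SLC30 genes, beside 8.07 TPM over protein-coding genes and 1.5 TPM over all entries. Of the 4 log2 ratios formed, each had the same sign in 3 of 3 libraries, and an exact permutation test that flips signs (two-sided) gave p = 0.25 for each, the smallest that 3 libraries allow, so that none could pass 0.05.

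When the 22 detected members were ordered by mean TPM, 10 of the 21 pairs of neighbours had ranges that overlapped between libraries. The overlaps included SLC39A7 with SLC39A9 by deposited length and all 6 neighbouring pairs from MT1X down to SLC39A14. By deposited length SLC39A1 lay above SLC39A11, and SLC39A11 above SLC30A9, without overlap. The order of genes depended on the length used. With GENCODE exon lengths SLC39A11 averaged 143 TPM, below SLC39A6 at 221 TPM, and without division by length they averaged 210 and 213 CPM.

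Of the 12 metallothionein genes 3 were detected, 2 others had a few counts and 7 had none. All 12 lie in a cluster of 119 kb on chromosome 16 (56565049 to 56684196, hg38). MT2A had 443.5, 461.5 and 489 counts, or 107, 110.3 and 99.4 TPM, which was 60.1 ± 1.51% of the TPM of the 12 genes. MT1X stood at 41.2, 40.9 and 32.3 TPM and MT1F at 29.1, 32.6 and 25.9 TPM, with replicate 3 lowest for all 3 genes. The log2 ratio of MT2A over MT1X was 1.48 ± 0.13, against 1.53 without division by length and 1.98 with GENCODE exon lengths. The 12 genes together had 761, 793 and 804 counts, 0.00282 ± 0.000189% of each library, and 176 ± 13.4 TPM.

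MT1G missed detection in replicate 2, with 10.5, 8.5 and 14 counts or 2.55 ± 0.424 TPM, a mean above that of SLC30A2. MT1A had 3, 1 and 1 counts. MT1E, MT1M, MT1B, MT1H and the pseudogene MT1L had 0 counts in every library, as did MT3, known from brain, and MT4, known from stratified squamous epithelium. The allowance of 3 counts caps MT1E at 0.597 TPM, MT1M at 0.688 TPM and MT1H at 0.763 TPM. The median over the 12 genes was accordingly 0 TPM. MT2A and MT1G had counts that were not whole, and how reads were assigned among these near-identical genes is uncertain. Division by the short lengths of these genes, 419 bases for MT2A, raises their TPM relative to their counts: MT2A had 16.7 CPM (counts scaled to library total, not to length), against 440.5 CPM for SLC39A7. GENCODE exon lengths are longer and gave 49.0 TPM for MT2A, 12.5 TPM for MT1X and 10.7 TPM for MT1F.

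**Figure D2:**
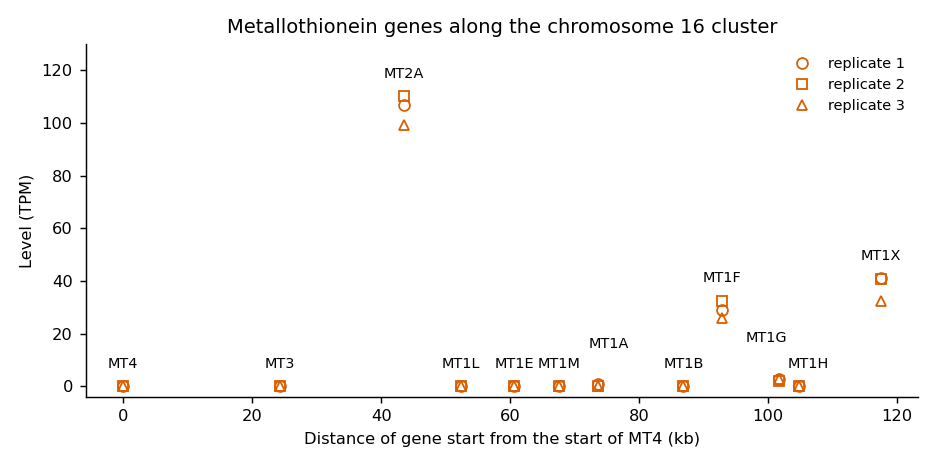
Level in TPM of each metallothionein gene in the 3 libraries (symbols) against the distance of its lower coordinate from that of MT4 in kb. MT2A, MT1F and MT1X stand between 25.9 and 110.3 TPM, with 7 genes at 0 TPM in every library between and beside them.

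Genes flanking the cluster were detected in 7 of 9 cases. NUDT21, a gene of mRNA 3′ end processing, stood at 105 ± 5.72 TPM, OGFOD1 at 71.0 ± 6.09 TPM and HERPUD1 at 209 ± 33.7 TPM, whereas CETP had 0 counts. Of the metallothionein pseudogenes on the list, MT1DP had 0, 3 and 0 counts, MT1JP 2, 0 and 0, and MT1IP and MT1HL1 had 0 counts throughout.

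Promoter windows were read for the metal response element, the short motif through which MTF1 acts, to set some metallothionein genes with and without counts side by side. The windows, from RefSeq on GRCh38.p14, run from 250 bases before to 50 bases after an annotated start. In all, 36 windows matched 27 of the 37 members. Of the metallothionein genes only MT2A, MT1X, MT1H, MT1B and MT4 had a window, and the detected MT1F had none. The motif was searched as TGCACNC and TGCGCNC on both strands, and no matches overlapped in these windows. Matches are in capitals below, 5′ to 3′ on the strand of the gene. MT2A (chr16:56608334-56608633, plus strand) and MT1X (chr16:56682220-56682519, plus strand) are shown as the detected genes with the highest levels, MT1H (chr16:56669564-56669863, plus strand) and MT1B (chr16:56651636-56651935, plus strand) as neighbours with 0 counts, and SLC30A1 (chr1:211579112-211579411, minus strand) as the exporter known to answer to MTF1.
MT2A: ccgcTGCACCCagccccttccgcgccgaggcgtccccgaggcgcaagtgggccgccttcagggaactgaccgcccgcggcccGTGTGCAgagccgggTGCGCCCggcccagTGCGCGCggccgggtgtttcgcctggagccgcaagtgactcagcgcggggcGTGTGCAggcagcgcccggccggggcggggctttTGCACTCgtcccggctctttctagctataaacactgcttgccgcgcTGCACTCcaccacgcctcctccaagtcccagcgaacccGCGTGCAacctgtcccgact
MT1X: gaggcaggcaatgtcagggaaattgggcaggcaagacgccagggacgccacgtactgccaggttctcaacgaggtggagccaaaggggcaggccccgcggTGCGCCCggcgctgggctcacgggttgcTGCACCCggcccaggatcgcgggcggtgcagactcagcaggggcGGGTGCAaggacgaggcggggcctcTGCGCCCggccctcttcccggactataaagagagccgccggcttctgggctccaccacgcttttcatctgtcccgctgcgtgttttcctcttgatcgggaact
MT1H: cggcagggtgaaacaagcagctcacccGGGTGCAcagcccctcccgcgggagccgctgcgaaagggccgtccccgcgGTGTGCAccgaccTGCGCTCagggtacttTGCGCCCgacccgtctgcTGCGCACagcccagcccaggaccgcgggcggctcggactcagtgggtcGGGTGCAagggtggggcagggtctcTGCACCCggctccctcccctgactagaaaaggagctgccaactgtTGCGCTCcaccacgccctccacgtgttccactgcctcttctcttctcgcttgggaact
MT1B: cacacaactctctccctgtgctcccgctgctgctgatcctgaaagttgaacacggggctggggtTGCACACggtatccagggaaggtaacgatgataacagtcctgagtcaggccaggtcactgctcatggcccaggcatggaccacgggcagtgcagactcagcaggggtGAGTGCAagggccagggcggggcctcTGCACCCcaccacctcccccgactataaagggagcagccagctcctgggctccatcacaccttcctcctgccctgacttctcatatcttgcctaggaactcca
SLC30A1: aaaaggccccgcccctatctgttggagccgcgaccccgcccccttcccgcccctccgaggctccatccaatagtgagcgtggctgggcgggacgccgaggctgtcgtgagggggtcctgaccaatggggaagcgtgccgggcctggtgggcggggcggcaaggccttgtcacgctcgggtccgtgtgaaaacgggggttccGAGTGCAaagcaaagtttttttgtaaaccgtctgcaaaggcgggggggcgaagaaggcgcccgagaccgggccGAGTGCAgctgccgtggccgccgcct

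MT2A and MT1H both had 8 matches, with MT2A at 106 TPM and MT1H at 0 counts. MT1X had 4 matches, MT1B, MT4 and SLC30A2 had 3 each, and SLC30A1 and one window of SLC30A3 had 2. Among all 35116 promoter windows 29.6% held at least 1 match, 8.60% at least 2, 0.601% at least 4 and 0.162% at least 5. Of the 36 windows of members 18 held at least 1, with a median GC content of 63.0% in member windows and 58.7% in all windows. MT2A had 37 CpG dinucleotides, MT1X 26, MT1H 25 and MT1B 7, beside a median of 14 over all windows. The windows of SLC39A7, SLC39A11, SLC30A9 and MTF1 held no match. These matches are descriptions of the sequence, and binding of MTF1 and methylation were not measured.

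**Figure D3:**
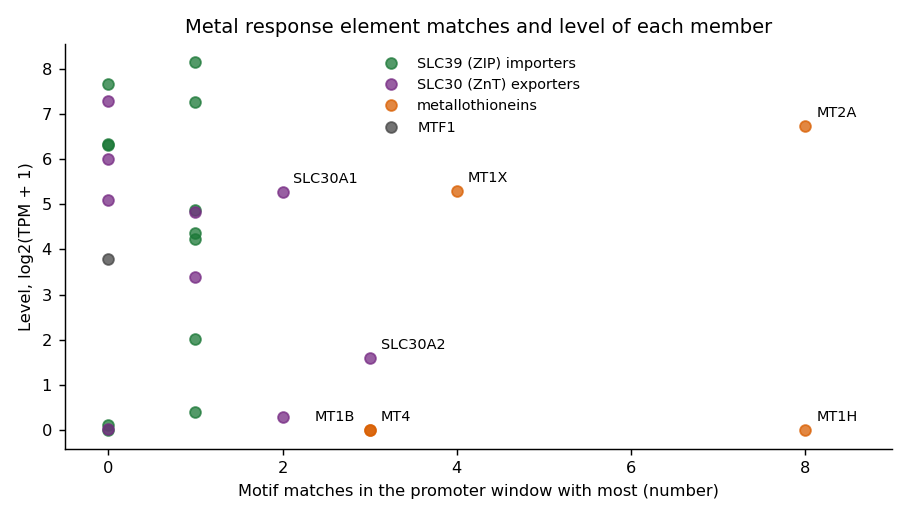
Number of metal response element matches, in the window with most matches of each of 27 members, against level as log2(TPM + 1). MT2A and MT1H share 8 matches and stand at 106 TPM and 0 TPM.

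The replicates differed little in most members. Counts were scaled to CPM with TMM factors between 0.990 and 1.01, and a chi-square test asked whether a gene varied more than Poisson sampling allows, with p-values adjusted by Benjamini-Hochberg over 14453 genes. Of the 22 members that passed the edgeR filter on low counts 11 varied beyond sampling, beside 41.6% of all genes tested. The median coefficient of variation was 7.08% in members and 6.93% in all genes tested. Against the trended negative binomial dispersion of edgeR, which allows for the usual spread between replicates at each level, 0 of the 22 members passed, beside 1.22% of genes. At an unadjusted p below 0.05 that test had 1 member, SLC30A2, of the 22, and 857 of the 14453 genes.

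SLC30A2 had the widest spread, at 2.50, 2.33 and 0.920 CPM, a factor of 2.72 between the highest and the lowest library (adjusted p = 4.59e-05 beyond Poisson sampling, 0.18 beyond the negative binomial trend). It was lowest in replicate 3, and without that library its adjusted p was 0.891. The 10 other members that passed the Poisson test differed by factors of 1.05 to 1.28. SLC30A7 was lower in replicate 3, at 113, 106 and 88.3 CPM (adjusted p = 3.02e-19), whereas SLC30A5 was higher there, at 109, 105 and 127 CPM (adjusted p = 3.20e-14), as was SLC39A11 at 194, 203 and 233 CPM (adjusted p = 1.42e-23). SLC39A7 was higher in replicate 2, at 428, 470.4 and 423 CPM (adjusted p = 1.19e-17).

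The 11 tested members that did not pass included MTF1, MT2A, MT1X, MT1F, SLC39A6 and SLC30A9, with adjusted p from 0.133 to 0.958. SLC30A9 had 188.9, 188.7 and 190.1 CPM. Replicate 3 was the lowest library in 11 of the 22 members, which it was in 39.8% of all genes tested. Without replicate 3 the count of members beyond Poisson sampling was 2 of 22, SLC39A1 and SLC39A7, beside 8.04% of genes tested. Without replicate 2 it was 7 of 23, beside 37.1% of genes tested.

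**Figure D4:**
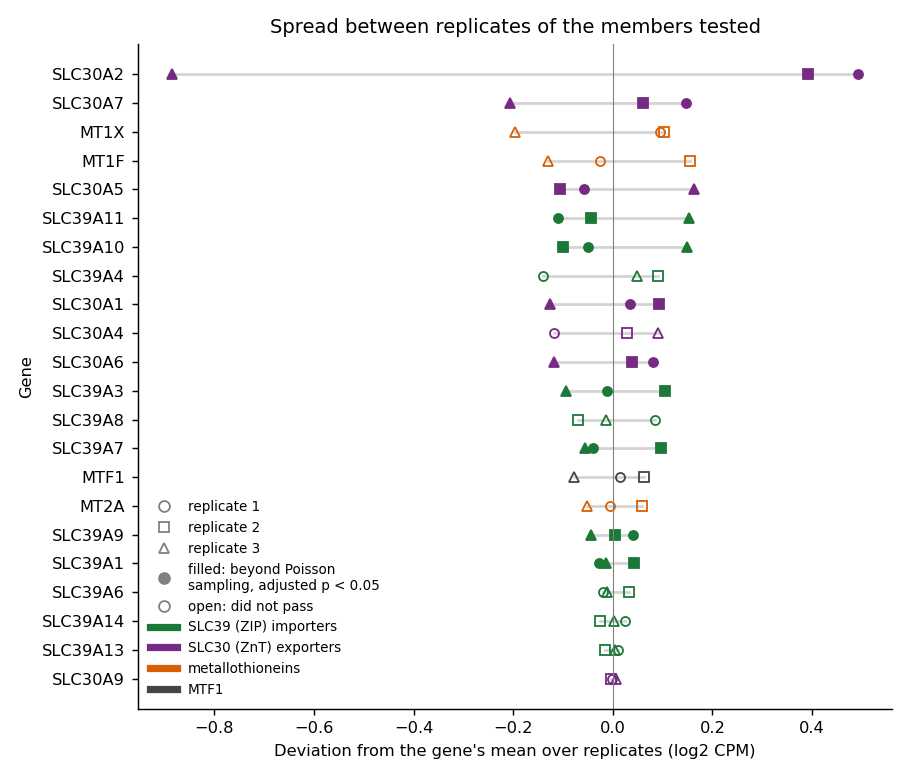
Deviation of each library from the gene's mean in log2 CPM for the 22 members tested, ordered by range, with filled symbols for genes that varied beyond Poisson sampling. SLC30A2 spans the widest range, with replicate 3 at the low end, and SLC30A9 the narrowest.

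Other metal genes gave a setting for these levels. Of 9 other zinc genes 7 were detected, led by deposited length by CSNK2A1 (170 ± 6.73 TPM), a catalytic subunit of the kinase CK2 that activates ZIP7, the zinc chaperone gene CBWD1 (115 ± 6.63 TPM), which has near-identical copies and an uncertain level, TMC6 (72.9 ± 4.11 TPM), whose product binds ZnT1, and CSNK2A2 (60.6 ± 2.33 TPM). CSNK2B, the regulatory subunit gene of CK2, named here after its values were seen, stood at 59.9 ± 1.70 TPM by a deposited length that also sums copies on alternate contigs, and at 407 ± 11.6 TPM with its main-chromosome length, above CSNK2A1 (165 ± 6.61 TPM on that scale). Of 10 copper genes 9 were detected, with the copper chaperone gene ATOX1 at 433 ± 13.8 TPM. That was above every zinc transporter gene by deposited length. With main-chromosome lengths for both genes SLC39A7 averaged 462 TPM and ATOX1 420 TPM, and SLC39A7 was the higher in replicates 1 and 2. The ranges of ATOX1 (407 to 434 TPM) and SLC39A7 (433 to 495 TPM) overlapped through replicate 3, at 434 and 433 TPM. All 15 iron and manganese genes were detected, led by the ferritin genes FTH1 (1353 ± 36.4 TPM) and FTL (536 ± 24.3 TPM), both of which have many pseudogene copies, the transferrin receptor gene TFRC (358 ± 11.6 TPM) and the iron exporter gene SLC40A1 (232 ± 9.08 TPM). Beyond Poisson sampling 3 of 7 tested zinc genes, 4 of 9 copper genes and 9 of 15 iron and manganese genes varied between replicates, beside 41.6% of all genes tested. Against the negative binomial trend of edgeR 0 of each list did. The medians were 59.9, 47.0 and 34.7 TPM for the zinc, copper and iron lists, beside 9.51 TPM over the 37 members. The zinc median is the value of CSNK2B by deposited length, and was 58.8 TPM with main-chromosome lengths. These medians are of unlike sets, as the lists hold chosen genes and the members are whole families. The family medians were 22.7 TPM for SLC39, 18.4 TPM for SLC30 and 0 TPM for metallothioneins.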

How the data were processed

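Poly-A RNA libraries were made with a stranded Illumina kit, per the labels' protocols. The build was hg38 and the tools named are TopHat, Subread and featureCounts, per the submitters' processing notes. Versions, strand and multimapping settings are not given in the sources used here. Each value deposited by the authors is an expected count of a gene, and 16.7% to 17.1% of non-zero values in a library were not whole.

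TPM were computed here from counts and deposited lengths, which equalled the merged exons over all listed sequences for all 26485 entries. Counts were rounded for edgeR 4.0.16 (R 4.3.3), which gave TMM factors, the low-count filter and dispersions, and log2 CPM used a prior count of 2. Ratios used log2 with 0.01 TPM added. The chi-square test was run on counts simulated with Poisson error, a setting without the extra spread that many genes had between these libraries. Alternatives were DESeq2 1.42.0 size factors, no filter, a negative binomial error, other detection rules, CPM, GENCODE 29 or main-chromosome lengths, a pseudocount of 1 TPM and each replicate left out. Gene types came from RefSeq, by 23758 symbols and 1536 synonyms. The rule for members, which reads symbols, and the lists were set with earlier results of these data known. Members of at least 10 TPM, partner pairs and members that varied are given by library, and up to 4 genes per other list are named, with pseudogenes, markers, CETP and CSNK2B named beyond that.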

Additional observations from a re-analysis of the deposited data

How the results depend on the processing

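The 4 log2 ratios kept their sign, and the 22 detected members became 22 to 28, under every alternative run. The count of members that varied between replicates went from 11 to 0, and that of all genes from 6018 to 177, when the negative binomial trend replaced Poisson sampling, which by construction allows more spread. Leaving out each replicate gave 2 to 10 members and 1174 to 5435 genes. The median level of SLC30 was 21.9 CPM without division by length, 33.1 TPM over detected members and 13.6 TPM with GENCODE lengths. That of SLC39 was 32.9 CPM, 28.3 TPM over detected members and 22.0 TPM with main-chromosome lengths, and that of metallothioneins 38.1 TPM over detected members. Levels of all 18 members of at least 10 TPM moved by more than 1 SD with GENCODE lengths and 4 did with main-chromosome lengths, an alternative added after seeing the data. With main-chromosome lengths 36 of 37 members kept their own length, so their TPM moved only by the common scaling to the library total. The ratio of that TPM to the TPM by deposited length had a median of 0.970 over detected entries. It was 5.82 for SLC39A7, whose deposited length sums 6 copies. With GENCODE lengths, levels also moved in genes whose length hardly changed. SLC39A6, at 3679 bases deposited and 3682 in GENCODE, went from 153 to 221 TPM. MTF1, at 7972 and 8024 bases, went from 12.8 to 18.3 TPM. TPM with GENCODE lengths were scaled over the entries that had such a length only, so shifts from deposited TPM are not of gene length alone. How much of each shift came from that scaling was not tested. No paired analysis was possible because the series has a single group. No group had enough libraries for a test of outlying samples.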
